A study of Mus musculus with 11 samples.

Results

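The liver releases glucose when blood glucose falls and takes it up after a meal, and 9 genes at the control points of these routes were followed in the livers of mice with MASH: *Pck1*, *G6pc*, *Fbp1*, *Pcx*, *Ppargc1a*, *Gckr*, *Pklr*, *Slc2a2* and *Pfkfb1*. They were picked by name from the 46603 genes of the count table, for their roles in gluconeogenesis and glucose use, and with earlier results of these data known. All 9 were in the table and all 9 passed the filter on low counts, as did 13880 genes in all.

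RNA was sequenced in bulk from the livers of 11 male mice of the B6.V-Lep ob/JRj strain (*ob/ob*), 7 given vehicle and 4 given INT-767. INT-767 is a bile acid analog that activates the nuclear receptor FXR and the membrane receptor TGR5, and mice were dosed daily at 10 mg/kg by gavage over 8 weeks. Both groups lacked leptin, were 5 to 6 weeks old when they started on the AMLN diet rich in fat with trans-fat, fructose and cholesterol, stayed on that diet during dosing, and were enrolled only after a liver biopsy had shown steatosis and fibrosis. No lean, chow-fed or leptin-sufficient liver was analysed here, so every value below is a difference between treated and untreated livers of obese, leptin-deficient mice. Plasma glucose, insulin and hepatic glycogen were not analysed here, and the study's methods describe terminal blood as taken from non-fasted mice. Each mouse gave 1 library. The 7 vehicle libraries held 7966963 to 15295230 counts each, with a median of 10878327, and the 4 INT-767 libraries held 7381211 to 16022459, with a median of 12034846.5.

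In gluconeogenesis, pyruvate carboxylase (*Pcx*) turns pyruvate into oxaloacetate in the mitochondrion, phosphoenolpyruvate carboxykinase (*Pck1*) turns oxaloacetate into phosphoenolpyruvate, fructose bisphosphatase (*Fbp1*) undoes the committed step of glycolysis, and the catalytic subunit of glucose-6-phosphatase (*G6pc*) frees glucose from its phosphate. The coactivator PGC-1alpha (*Ppargc1a*) switches on genes of the fasting response and of mitochondria, and glucagon and glucocorticoids raise *Pck1*, *G6pc* and *Ppargc1a* while insulin lowers the first 2 of these. Glucose enters and leaves the hepatocyte through GLUT2 (*Slc2a2*). The glucokinase regulatory protein (*Gckr*) holds the hepatocyte's hexokinase in the nucleus between meals, liver pyruvate kinase (*Pklr*) ends glycolysis, and the liver bifunctional enzyme (*Pfkfb1*) sets fructose-2,6-bisphosphate, the signal that favors glycolysis over gluconeogenesis. FXR is known to act on bile acid and glucose genes in hepatocytes, in part through the repressor SHP (*Nr0b2*).

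Of the 9 genes, 4 were higher with INT-767 and none was lower by edgeR's quasi-likelihood test (adjusted *p* under 0.05). The 4 were *G6pc*, *Ppargc1a*, *Slc2a2* and *Gckr*, by 2.31-fold, 1.91-fold, 1.58-fold and 1.39-fold. *Pck1*, *Fbp1*, *Pcx*, *Pklr* and *Pfkfb1* did not pass the test. By the same test 5.04% of the 13880 genes were higher and 4.68% were lower. At an unadjusted *p* under 0.05, 17.4% of all tested genes were higher and 15.6% lower, 32.9% together, and DESeq2 called 10.4% higher and 9.86% lower, which is the background for the counts of other gene lists. At the unadjusted level 4 of the 9 were higher and none was lower, and neither DESeq2 nor either form of limma-voom called any of them lower, where limma-voom called 4.37% of tested genes higher and 4.11% lower, and with sample weights 11.9% and 8.80%. The median log2 fold change of the 9 was 0.47, beside a median of -0.01 over all tested genes. With library size only the 2 medians were 0.26 and -0.22, and with scaling to hepatocyte markers 0.08 and -0.38. In 3 of the 9 (*Ppargc1a*, *Slc2a2*, *Gckr*) every INT-767 mouse lay above every vehicle mouse, as it did in 3.87% of tested genes, with the opposite arrangement in 3.65% of genes and in none of the 9. *Ppargc1a* was the member whose call held most widely, in 22 of 24 alternative settings.

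The 250 bases before the start of the 4 genes that were higher, and of *Pck1*, which did not pass the test, are shown so that the sequence next to each start can be read beside its values. The sequences are RefSeq's for GRCm38.p6, each written 5′ to 3′ on the strand of its gene and ending at the base before RefSeq's start, and capitals mark the motif matches described next. That start lies 155 bases inside the gene position given below for *G6pc*, 120 for *Gckr*, 25 for *Pck1* and 1 for *Ppargc1a*. The marked TGACCT of *G6pc* and GTTAAT of *Gckr* thus lie within the gene as placed below.
*Ppargc1a* (GRCm38 chr5:51567726-51567975, minus strand): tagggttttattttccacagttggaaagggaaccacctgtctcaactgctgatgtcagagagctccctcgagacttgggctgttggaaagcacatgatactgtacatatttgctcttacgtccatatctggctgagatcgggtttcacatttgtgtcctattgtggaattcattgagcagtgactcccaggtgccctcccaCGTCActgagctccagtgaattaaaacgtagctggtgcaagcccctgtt
*G6pc* (GRCm38 chr11:101367466-101367715, plus strand): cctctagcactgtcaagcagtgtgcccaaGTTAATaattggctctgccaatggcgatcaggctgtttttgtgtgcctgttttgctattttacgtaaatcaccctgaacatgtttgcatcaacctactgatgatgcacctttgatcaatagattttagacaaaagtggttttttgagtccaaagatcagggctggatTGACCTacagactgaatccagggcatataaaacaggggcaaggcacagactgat
*Slc2a2* (GRCm38 chr3:28697653-28697902, plus strand): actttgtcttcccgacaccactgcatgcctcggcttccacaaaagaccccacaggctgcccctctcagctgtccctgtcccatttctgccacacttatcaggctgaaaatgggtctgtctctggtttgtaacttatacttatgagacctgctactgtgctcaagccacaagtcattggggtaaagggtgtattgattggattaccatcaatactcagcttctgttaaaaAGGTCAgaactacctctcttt
*Gckr* (GRCm38 chr5:31297313-31297562, plus strand): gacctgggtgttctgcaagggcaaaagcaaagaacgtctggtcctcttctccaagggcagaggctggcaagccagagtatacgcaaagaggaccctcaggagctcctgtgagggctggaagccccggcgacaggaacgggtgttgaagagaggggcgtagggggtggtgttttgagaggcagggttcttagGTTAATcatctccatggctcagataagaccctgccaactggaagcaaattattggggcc
*Pck1* (GRCm38 chr2:173152823-173153072, plus strand): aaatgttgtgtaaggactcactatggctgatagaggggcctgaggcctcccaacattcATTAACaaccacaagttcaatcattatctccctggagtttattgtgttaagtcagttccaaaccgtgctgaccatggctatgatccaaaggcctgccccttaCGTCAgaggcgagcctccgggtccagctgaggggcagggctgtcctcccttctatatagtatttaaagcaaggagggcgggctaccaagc
Searched on both strands of these windows and of the 50 bases after each start were 6 motifs: the cyclic AMP response element TGACGTCA and its short form TGACG, which lies within it, the FOXO and FOXA core TGTTTAC, the E-box CACGTG, the nuclear receptor core AGGTCA and the HNF1 core GTTAAT. The short cyclic AMP element was found at *Ppargc1a*, with its first base as printed 49 bases upstream of the start, and at *Pck1*, 90 bases upstream, both in reverse (CGTCA), and 20.8% of 32851 mouse promoters hold it. The nuclear receptor core was found at *Slc2a2* 21 bases upstream and, in reverse (TGACCT), at *G6pc* 54 bases upstream, and 16.3% of promoters hold it. The HNF1 core was found at *G6pc* 221, *Gckr* 59 and, in reverse (ATTAAC), *Pck1* 192 bases upstream, and 7.1% of promoters hold it. RefSeq gives 4 starts for *Pfkfb1* and 2 each for *Pcx* and *Pklr*, and for these the start nearest to the annotated 5′ end of the gene was taken first. Which of these starts the livers used was not examined, so the one taken first may not be the one used in liver. No window of the 9 genes, further starts included, held TGACGTCA (1.79% of promoters) or TGTTTAC (3.65%). Among the other members, *Pcx* held an E-box 248 bases upstream (7.15% of promoters) and *Pklr* a reverse nuclear receptor core 151 bases upstream, and the windows of *Fbp1* and *Pfkfb1* held none of the 6. Of the further starts, the second of *Pcx* held a nuclear receptor core and no E-box, 1 of the 3 of *Pfkfb1* held a nuclear receptor core and an HNF1 core, and the others held none. A match is only a run of letters, and no binding was measured here.

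*Ppargc1a*, the coactivator, had the lowest level of the 9 genes and the change that held best. Its gene lies at chr5:51454250-51567726 of GRCm38 on the minus strand (ENSMUSG00000029167) and has 13 exons. The level in CPM (counts relative to library size, scaled by edgeR's TMM factors) was 11.6 at the lowest, 15.28 at the median and 18.13 at the highest of the 7 vehicle mice. The 4 INT-767 mice had 23.07, 28.19, 31.54 and 30.73 CPM. All 4 were above every vehicle mouse, and within each group the mice lay close together (coefficient of variation 16.0% with vehicle and 13.5% with INT-767). The mean rose from 14.9 ± 2.38 (SD, n = 7) to 28.4 ± 3.82 CPM (SD, n = 4), a log2 fold change of 0.93 (SE 0.15, 95% interval 0.60 to 1.27, adjusted *p* = 0.00496 by edgeR). By an exact Mann-Whitney test, two-sided here and below, *p* was 0.00606, the smallest that 7 against 4 mice allow. Without any 1 mouse the log2 fold change stayed between 0.86 and 1.03, with an adjusted *p* of at most 0.0232.

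**Figure D1:**
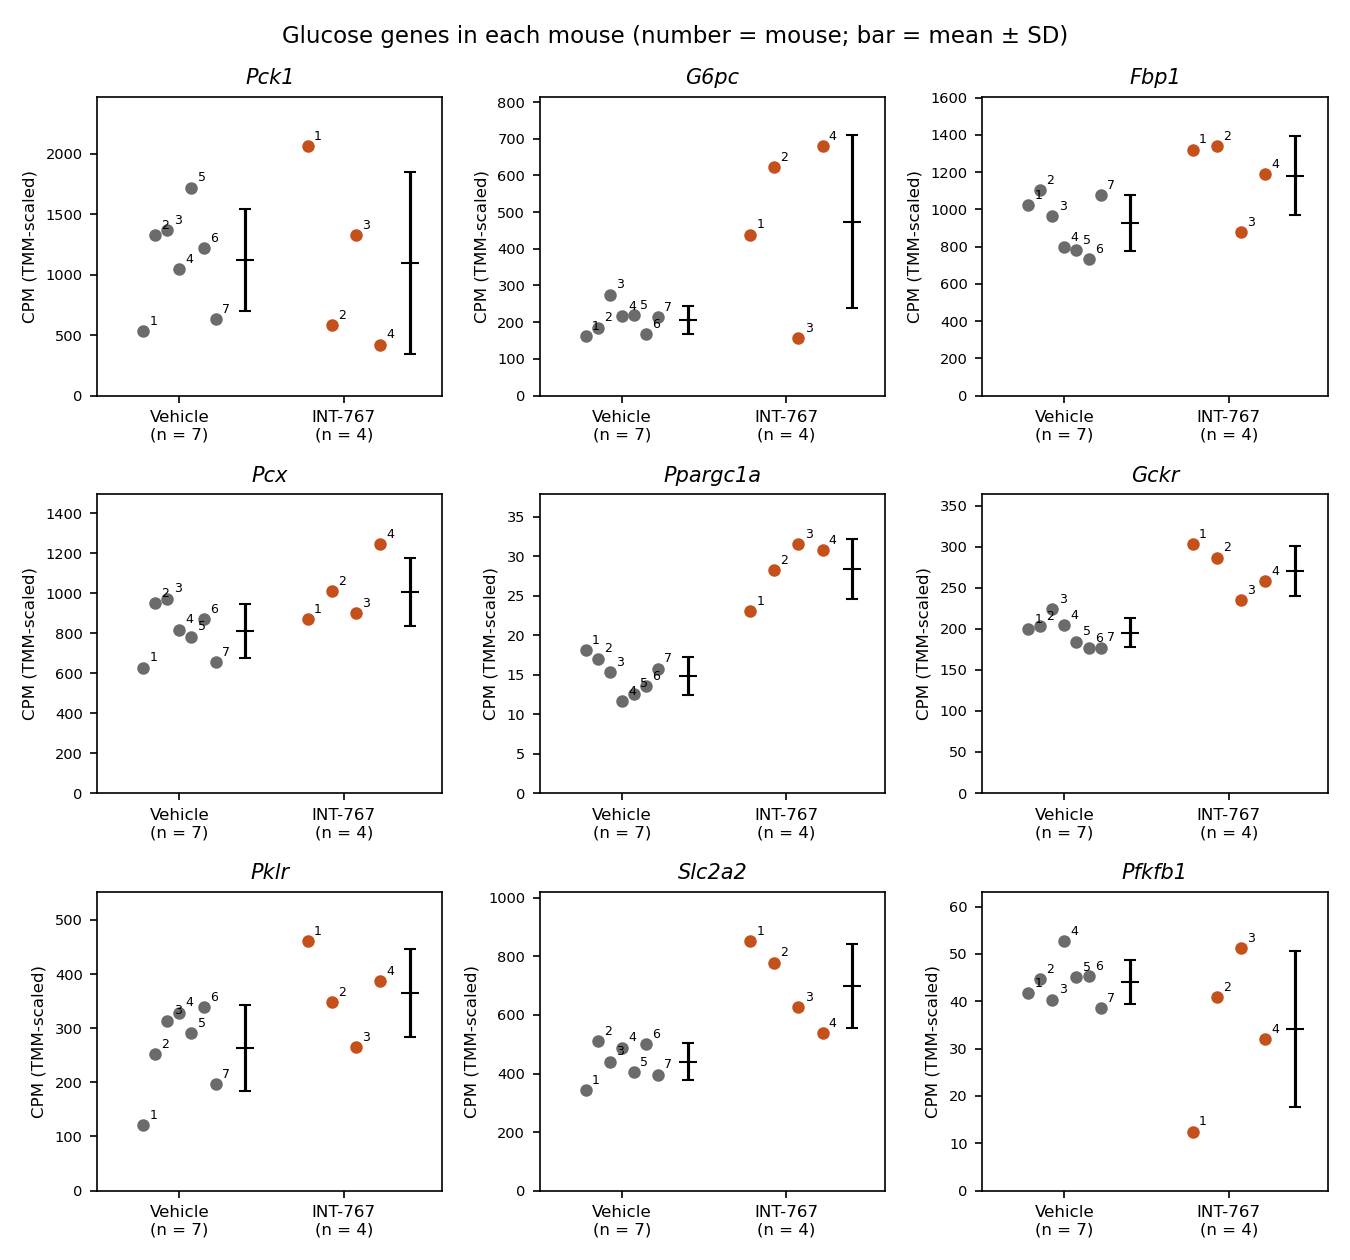
Level of each of the 9 genes in each mouse, in CPM on a linear axis from 0. Gray points are the 7 vehicle mice, orange points the 4 INT-767 mice, numbers name the mouse, and bars give mean ± SD. The groups are apart for *Ppargc1a*, *Gckr* and *Slc2a2*, 3 of 4 INT-767 mice lie above all vehicle mice for *G6pc*, and *Pck1* spreads widely in both groups.

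*G6pc*, the last enzyme before glucose leaves the cell, had the largest mean difference of the 9, seen in 3 of the 4 treated mice. The gene lies at chr11:101367561-101377903 on the plus strand (ENSMUSG00000078650) and has 5 exons. Vehicle mice had 161.3 CPM at the lowest, 213.8 at the median and 274.9 at the highest. INT-767 mice had 438.7, 622.8, 155.9 and 679.3 CPM. Mice 1, 2 and 4 of the INT-767 group were above every vehicle mouse, whereas mouse 3 was below every vehicle mouse, so that the groups overlapped from end to end. The mean rose from 205 ± 38.7 (SD, n = 7) to 474 ± 236 CPM (SD, n = 4), a log2 fold change of 1.21 (SE 0.30, 95% interval 0.55 to 1.86, adjusted *p* = 0.0298 by edgeR), with an exact Mann-Whitney *p* of 0.230. Without INT-767 mouse 3 the log2 fold change was 1.51. The edgeR call was lost when INT-767 mouse 2 or 4 was left out (adjusted *p* = 0.130 and 0.0863), and also with vehicle mouse 2, 4, 5 or 6 left out (0.0509, 0.0565, 0.0572 and 0.0658), and limma-voom did not call *G6pc* (adjusted *p* = 0.0722, and 0.251 with sample weights). By limma-voom with sample weights its log2 fold change was 0.51, below the 1.06 of *Ppargc1a* and the 0.57 of *Slc2a2*.

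*Pck1*, often read together with *G6pc* as the pair of gluconeogenic genes, had no such difference in mean. The gene lies at chr2:173153048-173159273 on the plus strand (ENSMUSG00000027513). Vehicle mice had between 532.8 and 1721 CPM with a median of 1220, and INT-767 mice had 2063, 585.8, 1325 and 421 CPM. The highest and the lowest of all 11 mice were both INT-767 mice, 4.9-fold apart. The means were 1122 ± 421 (SD, n = 7) and 1099 ± 753 CPM (SD, n = 4), with a log2 fold change of -0.03 (SE 0.42, 95% interval -0.94 to 0.88, adjusted *p* = 0.962 by edgeR) and an exact Mann-Whitney *p* of 0.788. The interval is wide on both sides of 0, and the sign turned with the mouse left out, from -0.53 without INT-767 mouse 1 to 0.24 without INT-767 mouse 4. Within the treated group the 2 genes were not in step: INT-767 mouse 4 had the highest *G6pc* and the lowest *Pck1* of all mice, and INT-767 mouse 3 had the lowest *G6pc* with a *Pck1* level of 1325 CPM, above the vehicle median.

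*Fbp1* and *Pcx*, the other enzymes of gluconeogenesis, were higher in mean with INT-767 but did not pass the test. For *Fbp1* (chr13:62864753-62888282, minus strand) vehicle mice had 732.7 to 1101 CPM with a median of 964.8. INT-767 mice had 1320, 1338, 876.6 and 1187 CPM, so that mice 1, 2 and 4 were above every vehicle mouse and mouse 3 was within their range. The log2 fold change was 0.35 (SE 0.17, 95% interval -0.03 to 0.73, adjusted *p* = 0.174 by edgeR; exact Mann-Whitney *p* = 0.0727). For *Pcx* (chr19:4510472-4621752, plus strand) vehicle mice had 627.7 to 972.5 CPM with a median of 818.2. INT-767 mice had 868.7, 1012, 900.9 and 1247 CPM, mice 2 and 4 above every vehicle mouse and mice 1 and 3 within their range. Its log2 fold change was 0.31 (SE 0.17, 95% interval -0.05 to 0.68, adjusted *p* = 0.207 by edgeR; exact Mann-Whitney *p* = 0.109), and it was 0.19 without INT-767 mouse 4. With an offset for GC and length it was 0.62, and *Pcx* was called higher (adjusted *p* = 0.0317 by edgeR). With scaling to hepatocyte markers the log2 fold changes were -0.0085 for *Fbp1* and -0.047 for *Pcx*.

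The mRNAs of GLUT2 and of the regulatory protein were higher in every treated mouse than in any vehicle mouse, although with library size only the groups overlapped for both *Slc2a2* (exact Mann-Whitney *p* = 0.0727) and *Gckr* (0.0242), and for *Slc2a2* also with upper-quartile factors (0.0242). *Slc2a2* (chr3:28697903-28731359, plus strand, ENSMUSG00000027690), which encodes GLUT2, was between 343.3 and 509.5 CPM with a median of 440.8 in vehicle mice. INT-767 mice had 851.8, 779.3, 626 and 536.9 CPM, all above every vehicle mouse, with mouse 4 the nearest to them. The mean rose from 441 ± 62.6 (SD, n = 7) to 699 ± 143 CPM (SD, n = 4), a log2 fold change of 0.66 (SE 0.17, 95% interval 0.30 to 1.03, adjusted *p* = 0.0295 by edgeR; exact Mann-Whitney *p* = 0.00606). The call was lost, with an adjusted *p* between 0.0515 and 0.130, when vehicle mouse 3 (0.0540), 4 (0.0575), 5 (0.0649) or 6 (0.0515) was left out, as when INT-767 mouse 1 (0.0535) or 2 (0.130) was. It was also lost with library size only (adjusted *p* = 0.102 by edgeR), no filter beyond 1 count (0.0526) and an offset for GC and length (0.0542).

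*Gckr* (chr5:31297443-31327314, plus strand, ENSMUSG00000059434) had the smallest change among the 4 genes called and the tightest groups. Vehicle mice ranged from 176 to 223.7 CPM with a median of 199.5, and INT-767 mice had 303.4, 286.6, 234.8 and 257.9 CPM. The groups did not overlap, although INT-767 mouse 3 stood only slightly above the highest vehicle mouse. The mean rose from 195 ± 17.3 (SD, n = 7) to 271 ± 30.4 CPM (SD, n = 4), a log2 fold change of 0.47 (SE 0.13, 95% interval 0.19 to 0.75, adjusted *p* = 0.0384 by edgeR; exact Mann-Whitney *p* = 0.00606). The edgeR call was lost without vehicle mouse 2 (adjusted *p* = 0.0589), 4 (0.0781), 5 (0.0813), 6 (0.0865) or 7 (0.0612), and likewise when INT-767 mouse 1 (0.0623), 2 (0.150) or 4 (0.0550) was left out. It was also lost with library size only (log2 fold change 0.27, adjusted *p* = 0.162 by edgeR) and with upper-quartile factors (0.0598). The same held with no filter beyond 1 count (0.106) and with at least 10 counts in every mouse (0.0573).

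The glycolytic enzyme *Pklr* and the bifunctional enzyme *Pfkfb1* did not pass the test. For *Pklr* (chr3:89136142-89146784, plus strand) vehicle mice had 120.3 to 338.3 CPM with a median of 291.2, and INT-767 mice had 460.4, 347.8, 264.4 and 387.4 CPM. INT-767 mice 1, 2 and 4 were above every vehicle mouse and mouse 3 was below the vehicle median. The log2 fold change was 0.47 (SE 0.26, 95% interval -0.09 to 1.03, adjusted *p* = 0.210 by edgeR; exact Mann-Whitney *p* = 0.0727). Of the exon bases of *Pklr*, 22% lie under exons of *Hcn3* on the opposite strand, and whether the counting used the strand is not given in the sources used here, so its counts may hold reads of both genes. For *Pfkfb1* (X chromosome, 150588229-150643878, plus strand) vehicle mice lay between 38.47 and 52.66 CPM with a median of 44.64. INT-767 mice had 12.45, 40.9, 51.25 and 32.07 CPM, with mouse 1 far below all others and mice 2 and 3 within the vehicle range. The log2 fold change was -0.37 (SE 0.28, 95% interval -0.98 to 0.24, adjusted *p* = 0.353 by edgeR; exact Mann-Whitney *p* = 0.315), and without INT-767 mouse 1 it was -0.09. It was -0.63 without INT-767 mouse 3 and -0.76 with scaling to hepatocyte markers.

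**Figure D2:**
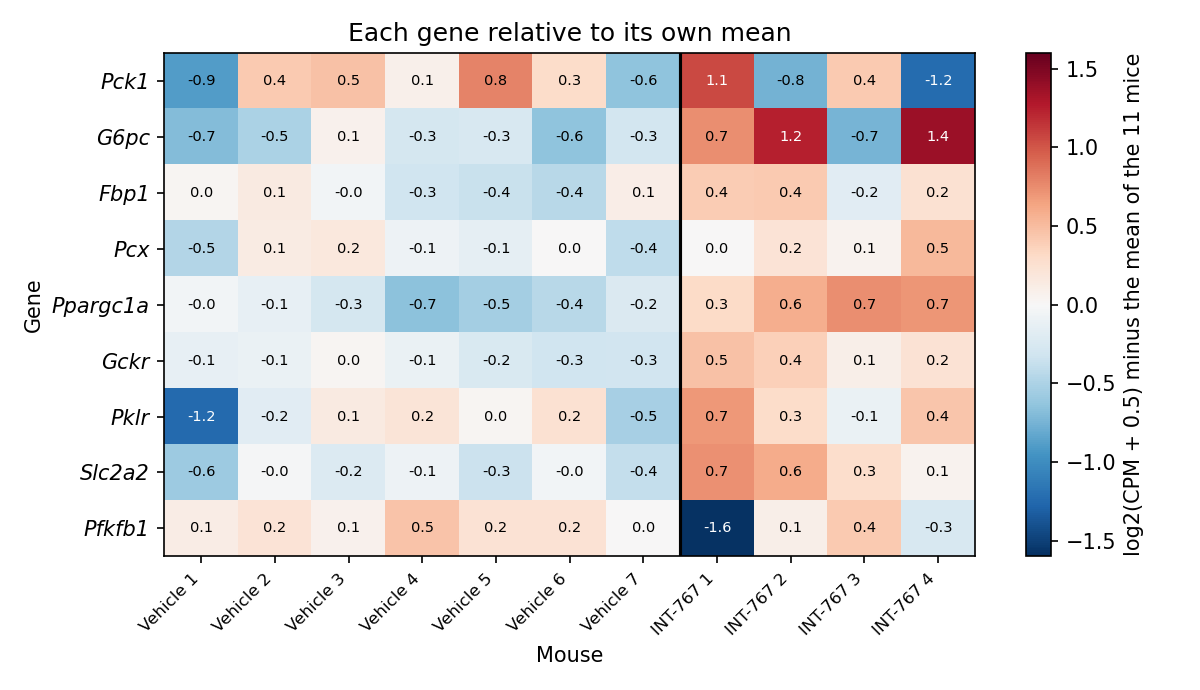
The 9 genes (rows) in the 11 mice (columns, vehicle left of the line), as log2(CPM + 0.5) minus the gene's mean over all mice, red above and blue below it. INT-767 mouse 3 is at -0.7 for *G6pc*, INT-767 mouse 1 at -1.6 for *Pfkfb1*, and for *Pck1* the INT-767 mice lie at 1.1, -0.8, 0.4 and -1.2.

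The treated mice thus differed among themselves by gene. INT-767 mouse 1 was the highest of all 11 for 4 of the 9 genes (*Pck1*, *Gckr*, *Pklr*, *Slc2a2*) and the lowest of all for *Pfkfb1*. INT-767 mouse 3 was the lowest of its group for 4 of the 9 (*G6pc*, *Fbp1*, *Gckr*, *Pklr*), yet it had the highest *Ppargc1a* of the 11. In the vehicle group, mouse 1 was the lowest of the 7 for 5 of the 9 genes (*Pck1*, *G6pc*, *Pcx*, *Pklr*, *Slc2a2*) while it had the highest *Ppargc1a* of that group. With vehicle the coefficient of variation ran from 8.83% for *Gckr* to 37.5% for *Pck1*, and with INT-767 from 11.2% for *Gckr* to 68.6% for *Pck1*. *G6pc* and *Pfkfb1* went from 18.8% and 10.5% with vehicle to 49.7% and 48.2% with INT-767, and the difference in spread was not tested.

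Per kilobase of exon, a scale on which genes can be set side by side, *Fbp1* had the highest level in vehicle livers, at 544 ± 89.2 CPM per kb (SD, n = 7), followed by *Pck1* at 327 ± 123, *Pcx* at 171 ± 28.2, *G6pc* at 85.1 ± 16.0, *Pklr* at 81.3 ± 24.7, *Slc2a2* at 76.6 ± 10.9, *Gckr* at 45.1 ± 3.98, *Pfkfb1* at 10.96 ± 1.147 and *Ppargc1a* at 2.25 ± 0.360. *G6pc*, *Pklr* and *Slc2a2* lay within 1 SD of each other. With INT-767 the level of *G6pc* was 196 ± 97.7 CPM per kb (SD, n = 4), within 1 SD of *Pcx* at 212 ± 36.01, and *Slc2a2* (121 ± 24.9) and *Pklr* (113 ± 25.2) remained within 1 SD of each other.

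Most of these genes have a sister gene that does the same reaction in other cells or compartments, and these sisters mostly did not pass the test. Of 12 such isoforms 10 were tested, 1 was higher and 1 lower, with a median log2 fold change of -0.47. The gene that was higher was *Slc2a4*, which encodes GLUT4, the insulin-responsive glucose transporter of muscle and fat. Vehicle mice had 3.083 to 6.616 CPM of *Slc2a4* with a median of 4.991, and INT-767 mice had 28.21, 20.45, 10.14 and 17.24 CPM. Every treated mouse was above every vehicle mouse, and the log2 fold change was 1.90 (SE 0.25, adjusted *p* = 0.00262 by edgeR; exact Mann-Whitney *p* = 0.00606), between 1.65 and 2.11 without any 1 mouse. Per kilobase the mean of *Slc2a4* with INT-767 was 5.47 CPM, against 121 for *Slc2a2*. The gene that was lower was *Pfkfb4*, a bifunctional enzyme of testis and of cells short of oxygen, which fell from 5.25 ± 1.02 CPM (SD, n = 7) to 2.77 ± 0.796 (SD, n = 4). Its log2 fold change was -0.90 (adjusted *p* = 0.0302 by edgeR), and the call was lost without vehicle mouse 5 or 6 or INT-767 mouse 2 or 3, with no filter beyond 1 count, and with the offset for GC and length.

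The other isoforms gave log2 fold changes of -0.41 for mitochondrial *Pck2*, -0.11 for the widely expressed *G6pc3*, -1.23 for *Ppargc1b*, -0.53 for *Pkm*, -0.25 for *Slc2a1*, -0.79 for *Slc2a3*, -0.13 for *Pfkfb2* and -1.39 for *Pfkfb3*, none with an adjusted *p* under 0.05 by edgeR. *Pfkfb3* was called lower by DESeq2 (adjusted *p* = 0.0376) and by edgeR with hepatocyte scaling (adjusted *p* = 0.0442), and without vehicle mouse 3 its log2 fold change was -0.74. For *Ppargc1b*, the sister coactivator of *Ppargc1a*, the treated mice ran from 0.0749 CPM in mouse 4 to 6.86 CPM in mouse 1 and vehicle mice from 0.993 to 13.9, too wide a spread to set a direction (95% interval -3.00 to 0.55). Leaving out 1 mouse gave log2 fold changes of -2.16 to -0.80 for *Ppargc1b* and -0.28 to -0.0044 for *G6pc3*. *Fbp2* and the islet gene *G6pc2* had too few counts to pass the filter. *G6pc2* had 6 counts over the 7 vehicle mice and 32 over the 4 INT-767 mice, and it was called higher by edgeR when the only filter was 1 count. Within each mouse the ratio of *Pklr* to *Pkm*, the pyruvate kinase of non-hepatocytes, was 5.22 to 13.7 per kilobase with vehicle and 12.5 to 20.3 with INT-767, and the ratio of *G6pc* to *G6pc3* was 14.6 to 23.4 with vehicle and 56.8, 58.5, 20.8 and 53.9 in INT-767 mice 1 to 4. The ratio of *Slc2a2* to *Slc2a1*, the transporter of most other cells, was 6.12 to 28.1 with vehicle and 19.8 to 36.9 with INT-767, with the groups overlapping in all 3 ratios.

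**Figure D3:**
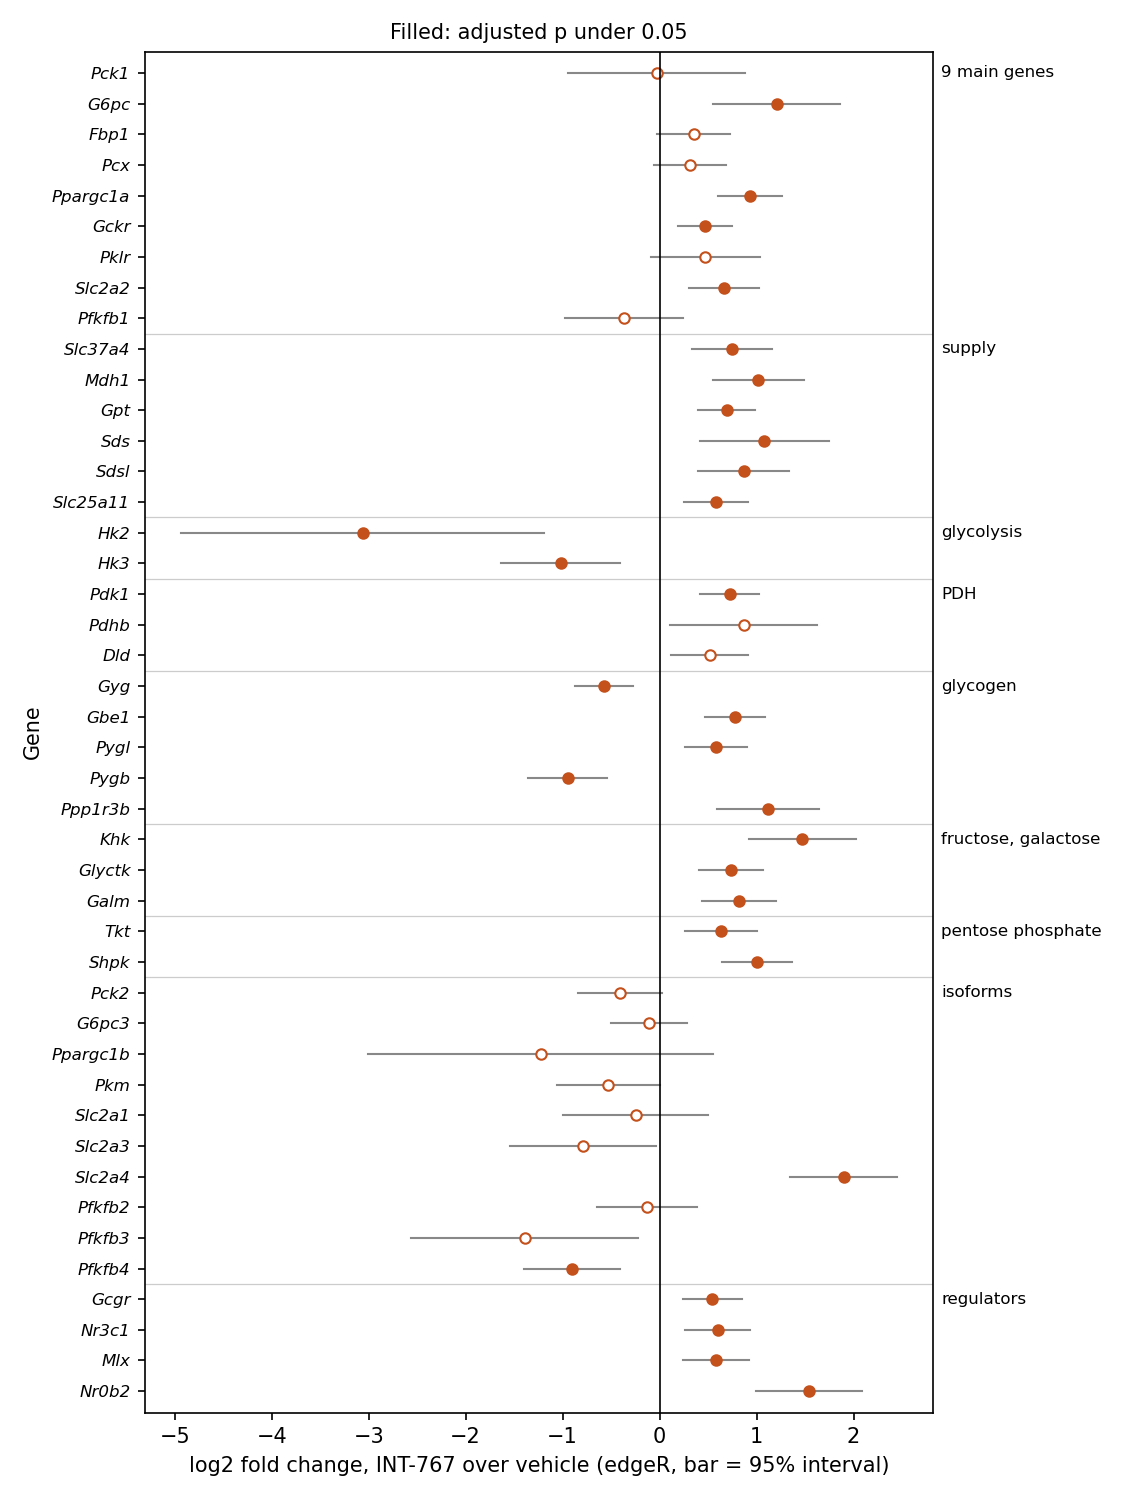
Log2 fold change of INT-767 over vehicle (horizontal axis) for the 9 genes, their isoforms and the named genes of neighboring pathways (rows), with the 95% interval as a bar. Filled points have an adjusted *p* under 0.05 by edgeR. *Slc2a4* at 1.90, *Nr0b2* at 1.54 and *Khk* at 1.47 lie farthest to the right and *Hk2* at -3.06 farthest to the left.

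The steps that feed gluconeogenesis or carry its last substrate were called higher in 6 of 20 genes and lower in none, with a median log2 fold change of 0.36, but in 2 and 3 with library size only and in 1 and 4, with a median of -0.0078, under scaling to hepatocyte markers. At an unadjusted *p* under 0.05, 10 were higher and 4 lower, and DESeq2 called 9 higher and 3 lower. *Slc37a4*, the transporter that brings glucose-6-phosphate to the enzyme encoded by *G6pc*, was 112 to 169.2 CPM with vehicle and 203.6, 369.4, 207 and 195.7 CPM with INT-767, so that the groups were apart (log2 fold change 0.75, SE 0.19, adjusted *p* = 0.0307 by edgeR). Without INT-767 mouse 2 the log2 fold change was 0.47, and the call was lost there and without vehicle mouse 2, 4, 5 or 6. In INT-767 mouse 3, where *G6pc* was lowest, *Slc37a4* was at 207 CPM. *Mdh1*, the malate dehydrogenase that returns oxaloacetate to the cytosol, was higher by 1.02 on the log2 scale (SE 0.22, adjusted *p* = 0.0158), and *Slc25a11*, the malate carrier, by 0.58. *Gpt*, which makes pyruvate from alanine, was higher by 0.69 (SE 0.14, adjusted *p* = 0.0113), and the serine dehydratases *Sds* and *Sdsl* by 1.08 and 0.87. Exons of other genes on the opposite strand cover 29.6% of the exon bases of *Sds* and 8.92% of those of *Slc25a11*. Without INT-767 mouse 2 none of the 20 was called higher. Of the 11 fits that left out 1 mouse, 8 lost the call of *Sds*, 7 that of *Slc25a11*, 5 that of *Sdsl* and 1 each those of *Mdh1* and *Gpt*. The call of *Sds* was also lost with library size only, with upper-quartile factors and with either other filter.

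Of 19 genes of glycolysis none was called higher and 2 were called lower by edgeR, with a median log2 fold change of -0.33. The number called lower was 4 with library size only (median -0.54), 5 with hepatocyte scaling (median -0.68) and 0 with no filter beyond 1 count. Leaving out 1 mouse gave 0 to 4 called lower. The median then ran from -0.43 without INT-767 mouse 1 to -0.13 without vehicle mouse 3. At an unadjusted *p* under 0.05, 1 was higher and 5 lower, and DESeq2 called none higher and 5 lower, so that 6 of 19 passed at the unadjusted level, near the share over all tested genes. The genes called lower were the hexokinases *Hk2* (-3.06, SE 0.87, adjusted *p* = 0.0443) and *Hk3* (-1.02, SE 0.28, adjusted *p* = 0.0425), the first typical of muscle, fat and proliferating cells and the second of myeloid cells. *Hk2* was 135.2 CPM in vehicle mouse 3 and 5.96 to 32.45 in the other vehicle mice, against 1.244 to 8.324 with INT-767, so the groups overlapped, and without vehicle mouse 3 its log2 fold change was -2.20, without INT-767 mouse 1 -3.68. *Pfkfb3* was also highest in vehicle mouse 3, at 101 CPM against 12.3 to 29.04 in the other vehicle mice. limma-voom called neither hexokinase without sample weights and both with them, and both calls were lost without INT-767 mouse 2, 3 or 4 or vehicle mouse 2, 4, 5 or 6.

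Fructose is part of the AMLN diet. Of 11 genes of fructose and galactose breakdown 3 were higher and none lower by edgeR, with a median log2 fold change of 0.41 (1 higher and 1 lower with hepatocyte scaling), and at an unadjusted *p* under 0.05, 6 were higher and none lower. DESeq2 called 5 higher and none lower. *Khk*, ketohexokinase, which phosphorylates fructose, was 287.7 to 419.2 CPM with vehicle and 737.6, 1196, 481.5 and 1487 CPM with INT-767. The groups were apart, and INT-767 mouse 3 was the lowest of the treated mice, as it was for *G6pc*. The log2 fold change was 1.47 (SE 0.26, adjusted *p* = 0.00644 by edgeR). *Glyctk*, glycerate kinase, was higher by 0.74 and *Galm*, galactose mutarotase, by 0.82, although 54.2% of the exon bases of *Glyctk* lie under exons on the opposite strand. Without INT-767 mouse 2 only *Khk* of the 11 was called higher.

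Glycogen genes were called in both directions. Of 21 tested, 3 were higher and 2 lower, with a median log2 fold change of -0.18, against none higher and 3 lower with a median of -0.56 under hepatocyte scaling. Leaving out 1 mouse, the median ran from -0.31 without INT-767 mouse 1 to -0.06 without INT-767 mouse 4. With the offset for GC and length it was -0.01. At an unadjusted *p* under 0.05, 4 were higher and 4 lower, near the share over all tested genes, and DESeq2 called 4 higher and 2 lower. *Ppp1r3b*, the liver subunit that targets a phosphatase to glycogen, rose from 193 ± 40.6 (SD, n = 7) to 420 ± 162 CPM (SD, n = 4), with a log2 fold change of 1.12 (SE 0.24, adjusted *p* = 0.0179 by edgeR). The branching enzyme *Gbe1* was higher by 0.78 (adjusted *p* = 0.00831) and liver glycogen phosphorylase *Pygl* by 0.58 (adjusted *p* = 0.0303). The brain phosphorylase *Pygb* was lower by 0.95 (log2 fold change -0.95, adjusted *p* = 0.0115) and glycogenin *Gyg* had a log2 fold change of -0.57 (adjusted *p* = 0.0252). Without INT-767 mouse 2 only *Gbe1* of the 21 was called. The call of *Pygl* was lost in 6 of the 11 fits that left out 1 mouse (vehicle mouse 4, 5 or 6 or INT-767 mouse 1, 2 or 4), with library size only, with no filter beyond 1 count and by limma-voom with sample weights. That of *Gyg* was lost also without INT-767 mouse 4 and with no filter beyond 1 count. That of *Pygb* was lost also with the offset for GC and length (adjusted *p* = 0.0522 by edgeR).

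Of 12 genes at the pyruvate dehydrogenase step 1 was called higher and none lower, and with hepatocyte scaling none was called. This was the kinase *Pdk1*, which turns the complex off, with a log2 fold change of 0.72 (SE 0.14, adjusted *p* = 0.0103 by edgeR), a call lost without INT-767 mouse 2. The complex's own *Pdhb* and *Dld* had log2 fold changes of 0.87 and 0.52 that did not pass the test (adjusted *p* = 0.114 and 0.0844), although DESeq2 and limma-voom with sample weights called *Dld*. Without INT-767 mouse 4 the log2 fold change of *Pdhb* was 0.35, with the offset for GC and length that of *Dld* was 0.12, and without vehicle mouse 1 both were called (adjusted *p* = 0.0467 and 0.0232 by edgeR). At an unadjusted *p* under 0.05, 5 of the 12 were higher and none lower, and DESeq2 called 3 higher and none lower. Of 9 genes of the pentose phosphate pathway 2 were higher and none lower by edgeR, transketolase *Tkt* by 0.63 and sedoheptulokinase *Shpk* by 1.00, against 1 higher and 1 lower with library size only and 1 higher and 2 lower with hepatocyte scaling. The call of *Tkt* was lost in 8 of 11 fits that left out 1 mouse and that of *Shpk* in none. At an unadjusted *p* under 0.05, 3 of the 9 were higher and 2 lower, and DESeq2 called 2 higher and 2 lower.

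Among 28 receptors, transcription factors, kinases and other regulators of hepatic glucose metabolism, 4 were higher and none lower by edgeR, and 7 were higher and 2 lower at an unadjusted *p* under 0.05. DESeq2 called 7 higher and 1 lower. The 9 of 28 at the unadjusted level are near the share over all tested genes, and edgeR called 1 higher and 1 lower with library size only and 1 higher and 2 lower with hepatocyte scaling. With upper-quartile factors, as with no filter beyond 1 count, edgeR called only *Nr0b2*, which was higher. *Gcgr*, the glucagon receptor, was 178.8 to 228.2 CPM with vehicle and 229.8, 349.1, 270 and 306.3 CPM with INT-767, with INT-767 mouse 1 just above the highest vehicle mouse (log2 fold change 0.54, SE 0.14, adjusted *p* = 0.0328 by edgeR). *Nr3c1*, the glucocorticoid receptor, was higher by 0.60 (adjusted *p* = 0.0329) and *Mlx*, the partner of the glucose sensor ChREBP, by 0.59 (adjusted *p* = 0.0364), and 19.3% of the exon bases of *Mlx* lie under *Psmc3ip*. *Nr0b2*, which encodes SHP, was 9.735 to 26.03 CPM with vehicle and 49.31, 63.01, 45.2 and 41.14 CPM with INT-767 (log2 fold change 1.54, SE 0.25, adjusted *p* = 0.00475). The call of *Nr0b2* held without any 1 mouse, and those of *Gcgr*, *Nr3c1* and *Mlx* were each lost when INT-767 mouse 2 or 4, or vehicle mouse 4, 5 or 6, was left out. SHP is a target of FXR. Of the other targets examined, *Abcb11*, the bile salt pump, and *Slc51b*, a bile acid exporter, were called higher. The bile acid synthesis enzymes *Cyp7a1* and *Cyp8b1* were called lower. The call of *Cyp7a1* was lost without INT-767 mouse 2 (adjusted *p* = 0.0705 by edgeR), and those of *Abcb11*, *Slc51b* and *Cyp8b1* held without any 1 mouse. The paper reported these directions in the same mice. In INT-767 mouse 3, which had the lowest *G6pc*, *Nr0b2* was at 45.2 CPM, within the range of the other treated mice.

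**Figure D4:**
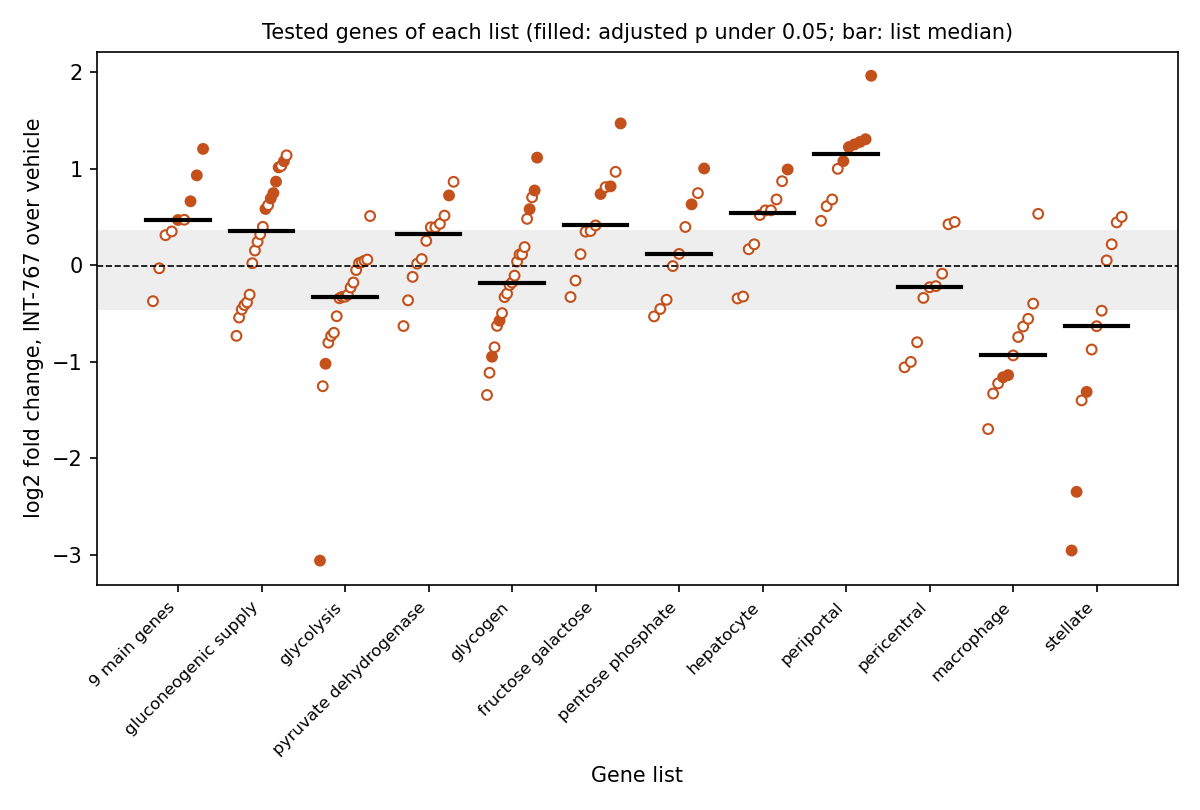
Log2 fold change of INT-767 over vehicle (vertical axis) for every tested gene of each list, filled where the adjusted *p* was under 0.05 by edgeR, with the list's median as a bar. The gray band spans the interquartile range of all tested genes and the dashed line marks their median of -0.01. Medians were 1.15 for periportal hepatocyte markers, -0.93 for macrophage markers and 0.47 for the 9 glucose genes.

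The RNA came from whole liver, so fewer or more cells of a type and less or more RNA per cell cannot be told apart. Hepatocyte markers were abundant in every library, and their summed level was also higher with INT-767, at 87450 to 125500 CPM in the treated mice and 65870 to 86930 with vehicle, so that the groups were just apart. *Alb* was the most abundant of them, none of the 10 was at 0, 1 of the 10 (*Hpd*) was called higher and none lower, and the median log2 fold change was 0.55, near the 0.47 of the 9 genes. Markers of periportal hepatocytes, the zone in which gluconeogenesis is strongest, were called higher in 6 of 10 and lower in none, with a median of 1.15 and sums of 5276 to 7218 CPM with vehicle and 10700 to 13810 CPM with INT-767. *Sds* is in this list as well as among the genes that supply gluconeogenesis. Of 9 tested pericentral markers none was called (median -0.23, with sums of 3437 to 8494 CPM with vehicle and 2456 to 5953 with INT-767). Macrophage markers were called lower in 2 of 11 (median -0.93) and stellate cell markers in 3 of 11 (median -0.63). Macrophage sums were 576.4 to 851.2 CPM with vehicle and 357.5 to 763 with INT-767, and stellate sums 980.8 to 1921 and 724 to 1532 CPM. Of 8 endothelial markers *Vwf* was called lower (median -0.37). None of 7 cholangiocyte markers was called, although all 7 had a negative log2 fold change (median -0.61) and 3 had an unadjusted *p* under 0.05, and none of 7 tested lymphocyte markers was called (median -0.26). The part of these cell types in the results was not tested.

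When libraries were scaled to the hepatocyte markers in place of TMM, an alternative chosen after the data were seen, 1 of the 9 genes was called higher. This was *Ppargc1a*, with a log2 fold change of 0.58 (adjusted *p* = 0.0349 by edgeR). Under this scaling the median over all tested genes was -0.38. *G6pc* had 0.84 (adjusted *p* = 0.0716), *Slc2a2* 0.28 (adjusted *p* = 0.247) and *Gckr* 0.10 (adjusted *p* = 0.589). The markers used for this scaling were themselves higher in sum with INT-767, and *Cps1* is among them as well as among the periportal markers. The part of hepatocyte content in the differences of *G6pc*, *Slc2a2* and *Gckr* was not tested.

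**Figure D5:**
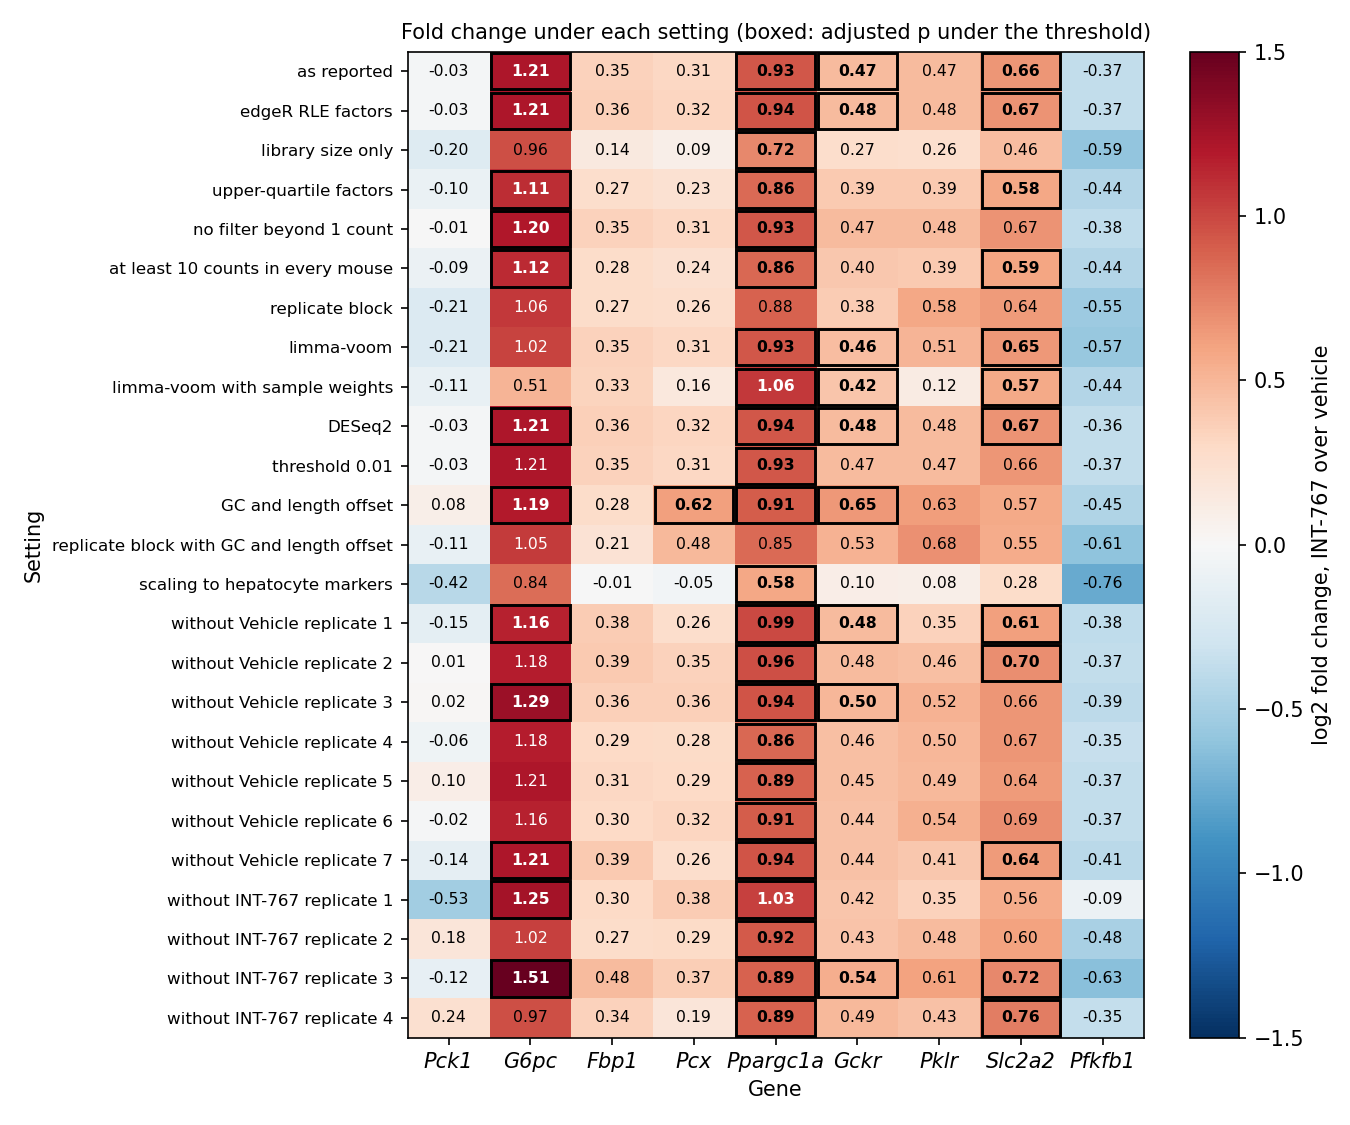
Log2 fold change of the 9 genes (columns) as reported and under 24 alternative settings (rows), with red for higher and blue for lower with INT-767 and a box where the adjusted *p* was under the threshold of that row (0.05, or 0.01 in the row so named). *Ppargc1a* is boxed in every row except the 2 with a replicate block, and *Pck1* takes both signs.

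The genes whose pattern over the 11 mice was nearest to each member were sought among all tested genes, by the root mean square difference of log2(CPM + 0.5) after each gene's mean was taken off. Nearest to *G6pc* was *Tkfc*, the enzyme that phosphorylates glyceraldehyde in fructose breakdown (difference 0.296, where *G6pc* itself deviates from its mean by 0.735), followed by *Tbc1d31* and *Kcnk5*. Nearest to *Ppargc1a* were *Arsk*, *Soat2* (0.172), which esterifies cholesterol, and *Stard4* (0.179), a sterol carrier. Nearest to *Slc2a2* were *Leo1*, *Asrgl1* and *Bhmt2*, and nearest to *Gckr* were *Ddrgk1*, *Ptar1* and *Dnajc25*. *Pck1* was nearest to *Nup210*, *Uaca* and *Sorbs3*, and its own nearest member of the 9, *Pklr*, ranked 5157th among all genes. For *Slc2a2* the nearest member was *Gckr*, at rank 92, and for *Pklr* it was *Slc2a2*, at rank 60. For *G6pc* it was *Gckr*, at rank 649.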

How the data were processed

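Stranded mRNA libraries were made and read on an Illumina NextSeq by the authors, who aligned the reads with STAR to GRCm38 with Ensembl annotation. The submitters' processing notes name STAR 2.4.0, and the study's methods name another version. The deposited table holds raw counts of reads per gene from the authors, 46603 genes by 11 mice, whole numbers with no normalization. How the reads were counted, whether by strand, and in what batches was not given in the sources used here. Exons, positions and overlaps came from the GENCODE M21 annotation of GRCm38, matched by Ensembl identifier for 46091 genes.

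Groups followed the sample labels. Counts were filtered by filterByExpr (minimum count 10, minimum total 15), scaled by TMM and tested with edgeR 4.0.16 (quasi-likelihood, robust, treatment as the only term) in R 4.3.3, over 13880 genes with Benjamini-Hochberg adjustment at 0.05. The paper's own Mann-Whitney test was run on CPM as an exact test over all assignments of 4 of 11 mice. *p*-values weigh the difference between the groups against the variation between these mice. Without 1 INT-767 mouse the smallest exact *p* is 0.0167. limma 3.58.1 and DESeq2 1.42.0 served as alternatives, as did other scalings, filters, a replicate block, an offset removing library trends with GC and transcript length, and leaving out each mouse. The tools were tested on simulated data in which 200 of 13880 genes changed by 2 on the log2 scale, up or down. Of these, edgeR recovered 91.5%, limma-voom 90.5% and DESeq2 95%. Among the unchanged genes they called 9, 9 and 35 in turn. Smaller changes, such as those of the 9 genes, were not simulated. No library was a copy of another: the closest pair had a median chi-square per gene of 1.10, against 0.455 for random draws of 1 library.

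The 9 genes and all lists were chosen with earlier results of these data known. A gene of the glycolysis and fructose lists is not reported here and was left out of their counts. Genes named besides these are their isoforms, 5 targets of FXR and, in each list of neighboring pathways, up to 6 called genes, or the most abundant per kilobase where fewer than 2 were called. *Hpd* and *Vwf* were named after their values were seen. Promoter sequences are RefSeq's. Figures were drawn with matplotlib 3.10.9.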

Additional observations from a re-analysis of the deposited data

How the results depend on the processing

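Of the 9 genes, 4 were called higher and 0 lower. The number called higher was 1 with library size only, 1 at a threshold of 0.01 and 1 with scaling to hepatocyte markers (chosen after seeing the data), in each case *Ppargc1a*, 2 with no filter beyond 1 count, and 1 to 4 when 1 mouse was left out, 1 without vehicle mouse 4, 5 or 6 or INT-767 mouse 2. It was 3 or 4 with the other scalings, filters and tools. With the GC and length offset 4 were called, *Pcx* (0.62) in place of *Slc2a2* (0.57, adjusted *p* = 0.0542 by edgeR). Over all tested genes 700 were higher and 649 lower. These became 331 and 1026 with library size only, 467 and 812 with upper-quartile factors, 1658 and 1221 by limma-voom with sample weights, 1443 and 1368 by DESeq2, 158 and 87 at a threshold of 0.01, 1073 and 811 with the GC and length offset, and 230 and 2286 with hepatocyte scaling. Leaving out 1 mouse gave 164 (without INT-767 mouse 2) to 1906 (without vehicle mouse 1) higher and 110 to 1370 lower. The share of calls that were higher was 51.9% as reported, 24.4% with library size only, 36.5% with upper-quartile factors and 9.14% with hepatocyte scaling, and the median over the tested genes moved to -0.22, -0.09 and -0.38 (log2) in these 3 alternatives in turn, and -0.16 with no filter. Signs turned for *Pck1* (0.083 with the GC and length offset, -0.53 to 0.24 without 1 mouse), *Fbp1* (-0.0085) and *Pcx* (-0.047) with hepatocyte scaling, *Slc2a1* (0.013 by limma-voom with sample weights, -0.37 to 0.14 without 1 mouse) and *Pfkfb2* (-0.49 to 0.023 without 1 mouse). None of them was called as reported or in a setting where its sign turned. The exact *p* of *Slc2a2* was 0.0727 with library size only. The causes were not tested.

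The replicate block on the mouse's number called 0 genes higher and 0 lower, with or without the offset, and 1347 had an unadjusted *p* under 0.05, against 4573 without the block. Deviations of same-numbered mice correlated at -0.69, 0.22, 0.15 and -0.48. The sample labels link these mice by the number alone, and whether they shared a batch was not tested.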
